A study of Mus musculus with 14 samples.

Results

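The data described here are the levels of 33 genes of B-cells and of class II antigen presentation in RNA of mouse CD4+ T-cells. The 33 genes were chosen by name from the 36870 gene names on the array, with earlier results of these arrays known, and every probe carrying one of the names was taken. They comprise 24 genes of the B lineage and of co-stimulation and 9 genes of the class II pathway, measured by 66 probes. The same contrast between genotypes entered the choice, so the genotype differences given here are descriptions. The limma fit over all probes, members included, is given only as background and nothing about the members is supported by it.

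RNA came from CD4+ T-cells of Roquinsan/+ and Wild Type mice, with 7 samples of each genotype and 1 array for each sample, lettered A to G within a genotype. Roquinsan/+ mice are heterozygous for the sanroque allele of Roquin, an RNA-binding protein that restrains the follicular helper programme of T-cells, and have been used as a model of follicular helper T-cell lymphoma. The allele is present in the germline, so it was carried by every cell of these mice and not by T-cells alone. No treatment was stated for these samples, and age, sex, tissue of origin and the way in which CD4+ cells were isolated were not given in the labels of these samples. The paper that names the series describes arrays of lymph nodes from mice with and without ibrutinib, and its kit for isolating CD4+ T-cells belongs to another assay, so what these preparations were rests on the labels alone. Beyond the separate sample names nothing stated that each sample was a separate mouse, so the spread described here is that between samples.

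The level of a probe is log2 of its processed intensity minus the 75th percentile of the array, so that a difference of 1 is a change of 2-fold, and a negative level means a signal below that percentile. Over all probes, a wider set than that of the percentile subtracted, the 75th percentile was 84.6 on Roquinsan/+ C, the dimmest array. It was 284 to 811 on the other arrays. Spots of Roquinsan/+ G and Wild Type E lay 2 grid rows away from their probe names. Moving the rows raised their correlation across spots with the other arrays from 0.014 to 0.909 and from 0.015 to 0.889. On these 2 displaced arrays the lowest value that the scanner software assigns stood at a level of -4.32 and -4.00, so 9 members on Roquinsan/+ G and 11 on Wild Type E have only an upper bound there. The order of the arrays was therefore taken over the 12 well-placed arrays, 6 of each genotype. On all 12 of them 25 members were well above background, and 28 members had a probe among the 28805 probes that passed the filter on dim probes. Ebf1, Spib and H2-Aa passed it through the arrays of 1 genotype alone, 1 of them through Roquinsan/+ and 2 through Wild Type. Cd79a, Fcer2a, Blk, H2-DMb2 and Cd40 did not pass this filter and are given as values. Where these genes were not well above background, their values are no measured levels. Ranges, medians and genotype differences that include such values are limited by this. The T-cell genes of the label were measured on every well-placed array, since all 10 of 10 T-cell markers, Cd3e and Cd4 among them, were well above background on all 12.

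B-cells recognise antigen through a surface immunoglobulin that signals through CD79A and CD79B, and their identity is maintained by transcription factors such as PAX5 and EBF1. Class II molecules present peptides to CD4+ T-cells and are made by B-cells, dendritic cells and macrophages, under control of the transactivator CIITA. The invariant chain CD74 fills the peptide groove of a new class II molecule, and H2-DM exchanges its remnant for an antigenic peptide while H2-O moderates that exchange. Most of these genes are not known as part of the programme of mouse CD4+ T-cells, though a few, such as Cd37 and Cd86, can be expressed by T-cells. In RNA of a bulk sample, fewer cells of a type and less RNA per cell cannot be told apart.

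Of the members, 7 lie in the major histocompatibility complex on chromosome 17, where their probes fall between 34232033 and 34453134 in the mm9 build named in the array headers. Class II promoters are known for the X and Y boxes, bound by RFX and NF-Y, through which CIITA acts. Their letters are shown as background on these genes. RefSeq promoter windows were found for 23 of the 33 members and 6 of the 9 class II members. In the 250 bases before the start, 5 of these 6 class II genes held the letters TGATTGG of a Y box. The capitals mark TGATTGG and, in 4 of the genes, the letters GCAAC of an X box core, which lie 23 to 26 bases 5′ of it. The stretches of 60 bases are from GRCm38.p6 and are written 5′ to 3′ on the strand of the gene: H2-Aa at chr17:34287862-34287921 on the minus strand, H2-Eb1 at chr17:34305758-34305817, H2-Oa at chr17:34092286-34092345, H2-Ob at chr17:34238798-34238857 and H2-DMb2 at chr17:34145109-34145168, the last 4 on the plus strand.
H2-Aa: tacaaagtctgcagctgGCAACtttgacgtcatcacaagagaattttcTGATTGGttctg
H2-Eb1: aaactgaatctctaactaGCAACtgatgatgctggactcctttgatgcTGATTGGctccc
H2-Oa: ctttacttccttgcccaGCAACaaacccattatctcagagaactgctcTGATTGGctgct
H2-Ob: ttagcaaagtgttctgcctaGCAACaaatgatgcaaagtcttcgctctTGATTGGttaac
H2-DMb2: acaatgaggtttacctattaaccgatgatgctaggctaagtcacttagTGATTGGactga
TGATTGG began 45 to 92 bases before the start in these windows. Searched on both strands, TGATTGG was in 7.23% of all 32851 promoter windows, and GCAAC followed after 10 to 40 bases by TGATTGG was in 0.256%. The pair was in none of the 21 windows of the B-lineage and co-stimulation members, of which those of Fcer2a and Fcrla held TGATTGG without that pair. These matches describe letters and were not read as sites of binding.

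The members moved together from array to array, and the order of the arrays did not follow genotype. The level was highest on Roquinsan/+ F for 31 of the 33 members, where 11.3% of all probes tested were highest on that array. The next array was Wild Type B, so that Roquinsan/+ F and then Wild Type B led for 28 members, against 1.84% of all probes. Roquinsan/+ F, Wild Type B and Roquinsan/+ B followed each other in that order for 22 members, against 0.562%. Among the Wild Type arrays alone, Wild Type B was highest for 32 members, against 10.8%. At the other end, all 33 members were below their own median on both Wild Type F and Wild Type G, as were 39.7% of all probes, and 1 of these 2 arrays was the lowest of the 12 for 19 members, against 15%.

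Measured from each member's median over the 12 arrays, the median member stood 4.04 higher on Roquinsan/+ F, a 16.5-fold higher signal. It stood 2.39 higher on Wild Type B, or 5.24-fold, and 1.21 higher on Roquinsan/+ B. It stood 1.48 lower on Wild Type F and 1.70 lower on Wild Type G, where the signal was 0.308 of the median. The array with the most signal thus belonged to Roquinsan/+, the next to Wild Type, and the lowest arrays to Wild Type. The range over the 12 arrays had a median of 6.20 across the members and 1.73 across all probes tested. It exceeded 4 for 24 members, against 7.87% of all probes. The ranges of dim members include values not well above background. The step from Wild Type B to Roquinsan/+ F was of similar size for most members, with a median of 1.83 or 3.56-fold and extremes of 0.71 for Cd180 and 2.86 for Ciita. It lay between 1.5 and 2.5 for 24 members, against 3.67% of all probes, whose median step was 0.09. These 2 arrays were compared because they led for the members, so this gap describes that choice and is no separate support.

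**Figure D1:**
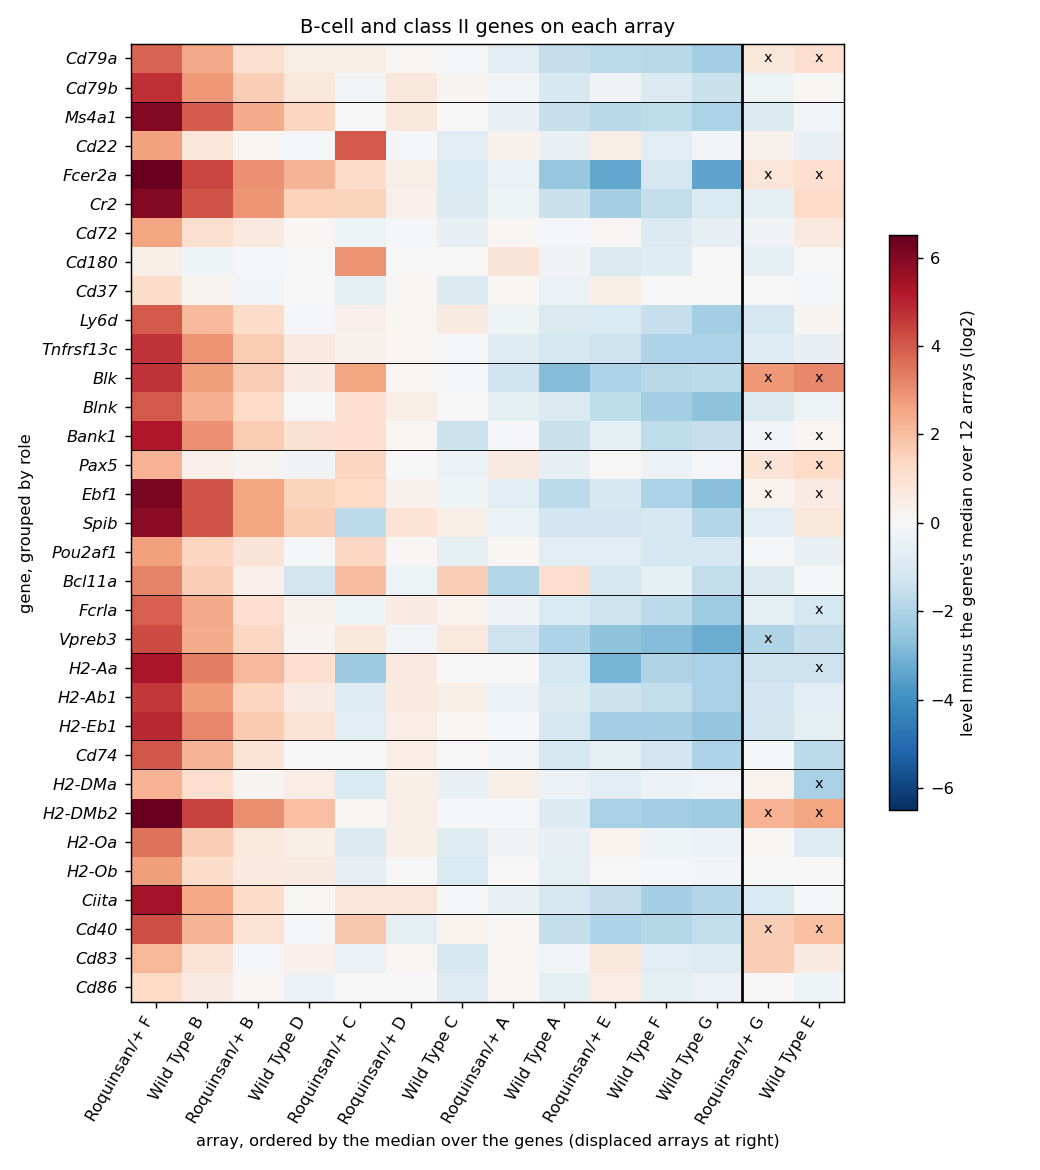
Level of each of the 33 genes (rows, grouped by role) on each array (columns) minus the gene's median over the 12 well-placed arrays, on the log2 scale, with red for higher and blue for lower. Columns run from Roquinsan/+ F, with a median of 4.04, to Wild Type G, with a median of -1.70, and the 2 displaced arrays stand at the right, where a cross marks a signal at the lowest value, an upper bound only.

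The B-cell receptor complex followed this order. Cd79b, 1 of the 2 signalling chains beside the surface immunoglobulin (probe at 106172780 to 106172839 of chromosome 11, mm9), ran from -0.28 through a median of 0.27 to 4.74 on the 6 well-placed Roquinsan/+ arrays and from -1.46 through -0.42 to 2.80 on the 6 Wild Type arrays. The top values were those of Roquinsan/+ F and Wild Type B, and without them the arrays of both genotypes lay between -1.46 and 1.58 and overlapped. Cd79a, the partner chain, was well above background on 9 of the 12 arrays, so its lowest values are no measured levels. Its level ran from -6.79 through -4.86 to -1.29 in Roquinsan/+ and from -7.31 through -5.89 to -2.61 in Wild Type, again with Roquinsan/+ F and Wild Type B on top and overlap below them.

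Surface molecules of mature B-cells had the same leading arrays in most cases. Fcer2a, the low-affinity IgE receptor CD23 of follicular B-cells, lay from -8.48 through -4.30 to 1.36 in Roquinsan/+ and from -8.52 through -6.12 to -0.74 in Wild Type. Roquinsan/+ E and Wild Type G held its lowest values, 1 of each genotype, and on these 2 arrays it was not well above background, so their values are no measured levels. Cr2, complement receptor CD21 of B-cells and follicular dendritic cells, ran from -4.37 through -1.34 to 3.73 in Roquinsan/+ and from -3.81 through -3.18 to 1.88 in Wild Type. Its lowest array was Roquinsan/+ E, so the Wild Type range lay within the Roquinsan/+ range. Ms4a1, the gene of CD20, ran from -4.00 through -1.85 to 3.72 in Roquinsan/+ and from -4.26 through -2.99 to 1.71 in Wild Type. Only Roquinsan/+ F, Wild Type B and Roquinsan/+ B, at 0.19, had a level of Ms4a1 above 0 among the 12 arrays.

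Tnfrsf13c, the receptor for the survival factor BAFF, ran from -3.46 to 2.57 in Roquinsan/+ and from -4.19 to 0.79 in Wild Type, with medians of -1.92 and -2.75. Ly6d, an early B-lineage surface marker, ran from -1.13 to 3.87 in Roquinsan/+ and from -2.33 to 1.99 in Wild Type, with medians of 0.09 and -0.66. For both genes the 3 leading arrays were Roquinsan/+ F, Wild Type B and Roquinsan/+ B, and Wild Type G was lowest. Cd72, an inhibitory co-receptor, had the same leading arrays in a narrower range of 3.46. Cd37, a tetraspanin that T-cells also express, had the narrowest range of the members, 2.04, and was second on Roquinsan/+ E, behind 2.29 on Roquinsan/+ F.

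The adaptors and the kinase of the receptor pathway gave the same picture. Blnk, the scaffold that links SYK to its effectors, ran from -1.72 through 0.69 to 3.94 in Roquinsan/+ and from -2.69 through -0.55 to 2.31 in Wild Type. Bank1, a B-cell scaffold, ran from -4.77 through -3.53 to 1.102 and from -5.77 through -5.54 to -1.18. For both, Roquinsan/+ F and Wild Type B stood above the other arrays, and those overlapped between genotypes. Blk, a Src-family kinase, was well above background on only 5 of the 12 arrays, so its lower values are no measured levels. It ran from -9.11 through -6.26 to -2.42 in Roquinsan/+ and from -9.91 through -8.02 to -4.39 in Wild Type. Roquinsan/+ F and Wild Type B were on top.

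Among the transcription factors, Ebf1, which specifies the B lineage, was well above background on 11 of the 12 arrays. It ran from -5.57 through -3.76 to 1.57 in Roquinsan/+ and from -7.23 through -5.51 to -0.43 in Wild Type. Spib, an ETS factor of B-cells and plasmacytoid dendritic cells, ran from -5.01 through -3.10 to 2.55 and from -5.23 through -3.65 to 0.78. It was also well above background on 11 of the 12 arrays. In both genes Roquinsan/+ F, Wild Type B and Roquinsan/+ B led. Pax5, which maintains B-cell identity, had a range of 2.81, and its highest levels of -2.96 on Roquinsan/+ F, -3.81 on Roquinsan/+ C and -4.65 on Roquinsan/+ A were all in Roquinsan/+. Pou2af1, the co-activator OBF-1, ran from -0.44 to 2.92 in Roquinsan/+ and from -0.91 to 1.63 in Wild Type.

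Bcl11a, a factor of early lymphoid, dendritic and erythroid cells, departed from the shared order. It was highest on Roquinsan/+ F at 2.17, but Roquinsan/+ C followed at 0.96, and Wild Type B at 0.57, Wild Type C at 0.56 and Wild Type A at 0.07 were close to each other. Its lowest level was on Roquinsan/+ A, at -2.97. On Wild Type A Bcl11a was the only member above its own median, by 1.12, where the median member stood at -1.004.

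Of the remaining B-cell genes, Vpreb3, a chaperone of the immunoglobulin light chain in the B lineage, ran from -5.00 through -2.11 to 1.86 in Roquinsan/+ and from -5.63 through -3.30 to 0.01 in Wild Type. Fcrla, an intracellular Fc receptor-like protein of B-cells, ran from -4.21 through -2.73 to 1.01 and from -5.21 through -3.26 to -0.42. Both had the 3 leading arrays of the shared order and their lowest level on Wild Type G.

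The classical class II chains had both leading arrays well above all others. H2-Ab1 ran from -0.15 through 1.37 to 5.83 in Roquinsan/+ and from -0.84 through 0.99 to 4.001 in Wild Type. H2-Eb1 ran from -1.01 through 1.35 to 6.07 and from -1.32 through 0.71 to 4.36. For these beta chains the other arrays of the genotypes overlapped, and Roquinsan/+ E, at -0.15 and -1.01, stood beside Wild Type F, at -0.37 and -0.98. H2-Aa, the alpha chain, ran from -5.65 through -2.31 to 2.65 and from -4.76 through -3.23 to 0.67. It was well above background on 11 of the 12 arrays, so not every value is a measured level. Its 2 lowest values, on Roquinsan/+ E and on Roquinsan/+ C at -5.01, were both in Roquinsan/+. H2-Aa, H2-Eb1, H2-Oa and H2-Ob, whose windows hold the letters of both boxes, shared the order of the 3 leading arrays. So did H2-DMb2, whose window holds the Y box letters alone. The same order was found for 14 of the 24 B-lineage and co-stimulation members, and none of their windows searched held the pair.

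Cd74, the invariant chain, ran from -0.21 through 0.68 to 4.49 in Roquinsan/+ and from -1.57 through -0.12 to 2.66 in Wild Type. Ciita, the transactivator, had the largest step between the 2 leading arrays, from -0.17 on Wild Type B to 2.68 on Roquinsan/+ F. Its medians were -1.92 in Roquinsan/+ and -3.29 in Wild Type, with lowest levels of -4.25 and -4.90. H2-DMb2, a beta chain of the exchange factor, was well above background on 7 of the 12 arrays, so its lowest values are no measured levels. It ran from -8.69 to -0.13 in Roquinsan/+ and from -8.85 to -2.17 in Wild Type. H2-DMa, its alpha chain, and H2-Oa and H2-Ob, the chains of the moderator, had narrower ranges of 3.27, 4.40 and 3.69. For H2-DMa and H2-Oa the lowest array was Roquinsan/+ C.

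All 3 co-stimulatory molecules had Roquinsan/+ F and then Wild Type B on top. Cd40, the receptor through which T-cells help B-cells, was well above background on 8 of the 12 arrays, so its lowest values are no measured levels. It ran from -7.94 through -5.45 to -1.77 in Roquinsan/+ and from -7.82 through -6.73 to -3.72 in Wild Type. Cd83 and Cd86, which are induced on activated antigen-presenting cells and can be found on activated T-cells, had ranges of 3.17 and 2.12. For both the next array was Roquinsan/+ E, an array on which the median member stood 1.16 lower. Cd86 ran from -2.80 through -2.65 to -1.47 in Roquinsan/+ and from -3.59 through -3.27 to -2.26 in Wild Type, and all 6 Roquinsan/+ arrays were above the Wild Type arrays other than Wild Type B.

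**Figure D2:**
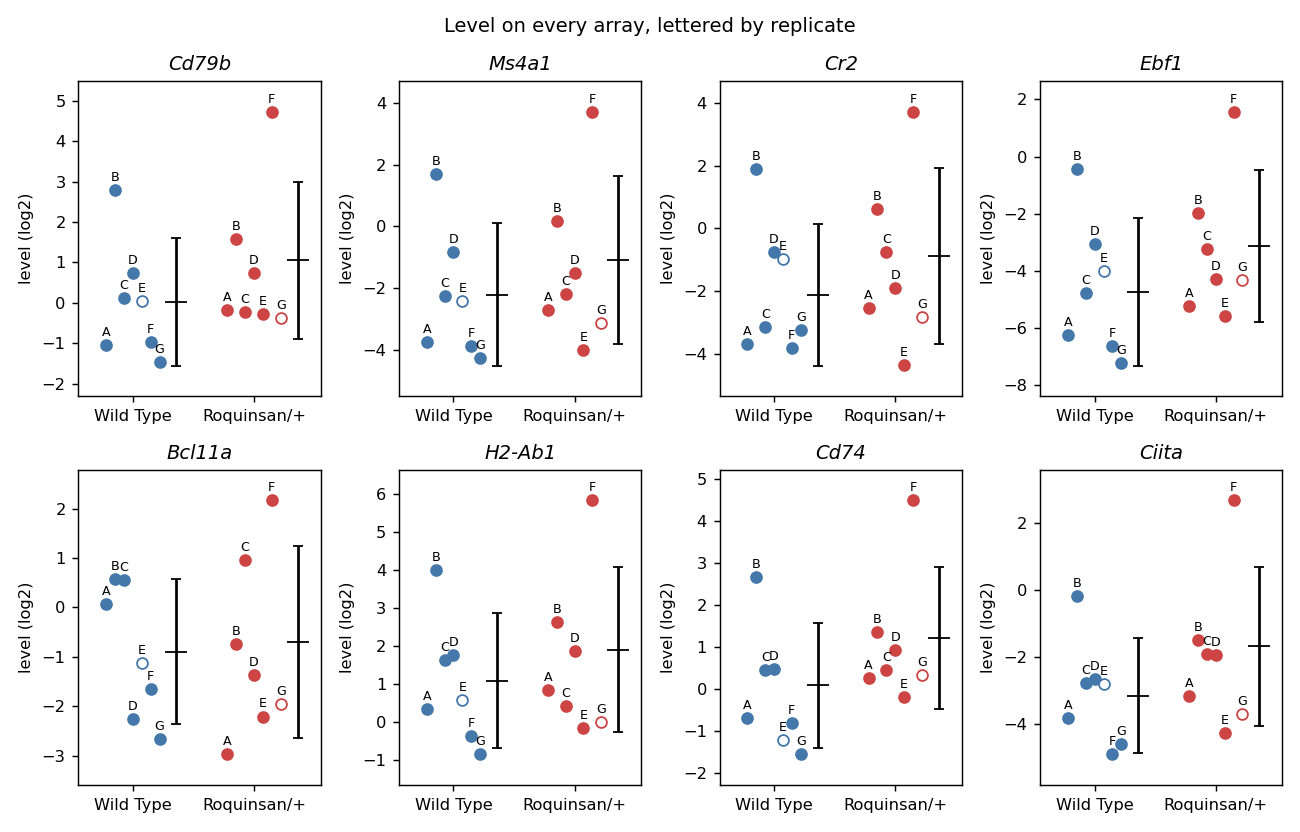
Level (log2) of 8 members on every array, lettered by replicate, with Wild Type in blue and Roquinsan/+ in red and open circles for the 2 displaced arrays. The bar beside each group is the mean with the SD over its 6 well-placed arrays, and Roquinsan/+ F is the top point of every panel, at 4.74 for Cd79b and 5.83 for H2-Ab1.

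Compared by genotype over all 14 arrays, the mean was higher in Roquinsan/+ for 33 of 33 members, where 52.3% of all probes tested were higher, and the median difference of the members was 0.80 against 0.016 for all probes. For Cd79b the means were 0.85 ± 1.86 in Roquinsan/+ and 0.03 ± 1.45 in Wild Type (SD, n = 7 each), and for H2-Ab1 they were 1.64 ± 2.10 and 1.02 ± 1.63. The difference was smaller than the pooled SD within genotypes for 29 of the 33 members, and larger for Cd22, Pax5, Pou2af1 and Cd86. Over the 6 well-placed arrays of each genotype the levels overlapped for all 33 members, and 0.892% of all probes did not overlap. limma's moderated test with Benjamini-Hochberg adjustment called 0 of the 28805 probes (0%) with the 14 arrays, and 1044 had an unadjusted p under 0.05. The smallest adjusted p over all probes by this limma fit was 0.861.

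The size of the genotype difference rested on single arrays. With the 12 well-placed arrays the median difference of the members was 1.03, with 33 of 33 higher in Roquinsan/+ and 54.3% of all probes higher. Without Roquinsan/+ F it was 0.33, and 29 members were higher against 53.7% of all probes. The 4 members then lower in Roquinsan/+ were H2-Aa by a difference of -0.38, Bcl11a by -0.37, Spib by -0.30 and H2-DMa by -0.18. Of these, H2-Aa and Spib were well above background on 11 of the 12 well-placed arrays. The class II members came to a median of 0.04 and the B-lineage and co-stimulation members to 0.39. H2-Ab1 and H2-Eb1, with differences of 0.82 and 0.92 over 12 arrays, had 0.04 and 0.08. Cd22, Cd180 and Bank1 kept the largest differences, 1.16, 0.76 and 0.76. With Wild Type B left out as well, 32 members were higher, against 53.3% of all probes, and the median was 0.86. Bcl11a was the exception, at -0.08. The difference thus became smaller without the leading Roquinsan/+ array and larger again without the leading Wild Type array.

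The 2 slides gave differences of opposite sign. Slide 1 held 5 Roquinsan/+ arrays (A, B, C, F and G) and 2 Wild Type arrays (F and G), and slide 2 held 2 Roquinsan/+ arrays (D and E) and 5 Wild Type arrays (A to E). On slide 1 the members had a median difference of 2.66, and 33 of 33 were higher in Roquinsan/+, against 59.7% of all probes. On slide 2 the median difference was -0.80, and 7 were higher and 26 lower, with 41.7% of all probes higher. Ciita, measured on all 12 well-placed arrays, differed by 3.23 on slide 1 and by -0.65 on slide 2. Of the 12 well-placed arrays, Wild Type F and Wild Type G were both below the 4 Roquinsan/+ arrays of slide 1 for 25 members, against 19.9% of all probes. The members higher in Roquinsan/+ on both slides were Cd22, Cd37, Cd74, H2-DMa, H2-Oa, Cd83 and Cd86. The means of slide 2 include the displaced array Wild Type E. There H2-DMa and Pax5 were at the lowest value, -4.00, and Cd74 was at -1.23. The slide 2 differences of H2-DMa, Cd74 and Pax5 were 0.11, 0.03 and -0.08, and their signs rest on Wild Type E. With slide as a block the median difference was 0.93, and the part of the slide in the single values was not tested.

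**Figure D3:**
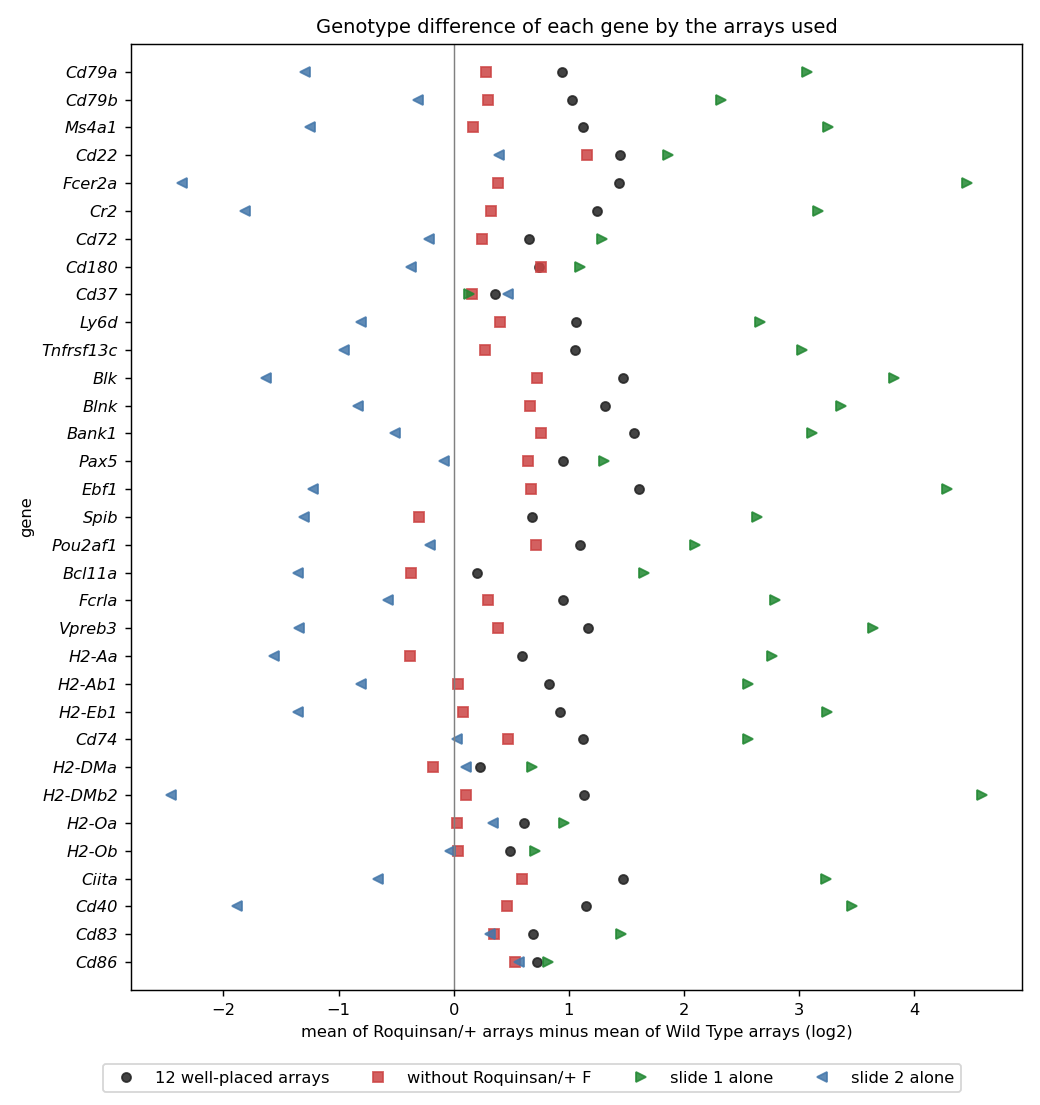
Mean of the Roquinsan/+ arrays minus the mean of the Wild Type arrays (log2) for each of the 33 genes, with the 12 well-placed arrays (circles), without Roquinsan/+ F (squares), and on slide 1 and slide 2 alone (triangles pointing right and left, displaced arrays included). The medians are 1.03, 0.33, 2.66 and -0.80, and the triangles of the slides lie on opposite sides of 0 for 26 genes.

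Several members had more than 1 probe, and the probes did not all follow the same arrays. Of the 43 member probes that were tested, 39 were highest on Roquinsan/+ F and 4 on Roquinsan/+ C, the dimmest array, on which 34.4% of all probes were highest. These 4 were probes of Cd22, Cd180, Ms4a1 and Cd86. Cd22, an inhibitory receptor of B-cells, is represented by a probe that reached 1.58 on Roquinsan/+ C and 0.20 on Roquinsan/+ F. Its other tested probe stood at 0.89 on Roquinsan/+ F, -1.24 on Wild Type B and -3.24 on Roquinsan/+ C. The probe of Cd180, a Toll-like receptor homologue of B-cells, stood at 0.14 on Roquinsan/+ C and -2.37 on Roquinsan/+ F, whereas its other 2 tested probes were highest on Roquinsan/+ F, at 1.33 and 0.51. Ms4a1 had a second probe at 0.65 on Roquinsan/+ C and -1.14 on Roquinsan/+ F. The values given for Cd22 and Cd180, including their differences without Roquinsan/+ F, therefore hold for 1 probe each. All tested probes of a member had the same sign of the genotype difference over 12 arrays, except for Bcl11a, with 2 higher and 1 lower.

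Class II and B-lineage members had different medians on Roquinsan/+ C, the dimmest array. There the B-lineage and co-stimulation members stood at a median of 0.90 above their own medians, with 17 of 24 above, and the class II members at -0.71, with 2 of 9 above. The lowest value that the scanner software assigns stood at -7.14 to -5.81 on Roquinsan/+ C and at -10.13 to -8.36 on the other well-placed arrays. The part of this floor and of the dim signal in the gap between the groups was not tested. On Roquinsan/+ F the medians of the groups were 4.01 and 4.59, on Wild Type B 2.38 and 2.54, and on Wild Type G -1.61 and -2.01.

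Other genes of the B-cell receptor pathway were read from a list of 36, of which 31 were on the array. The limma fit called 0 of the 29 that were tested at an adjusted p under 0.05. Of the 31, 23 were highest on Roquinsan/+ F and 14 on Roquinsan/+ F and then Wild Type B. Fcmr, Fcrl1, Siglecg, Syk and Fcgr2b, which B-cells express at their surface or use below the receptor, had Roquinsan/+ F and Wild Type B on top. Over the 12 arrays 28 of the 31 genes had a higher mean in Roquinsan/+, with a median difference of 0.37, and without Roquinsan/+ F 19 did, with a median of 0.05.

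Other genes of class II processing gave 6 of 15 with the highest level on Roquinsan/+ F. limma called 0 of the 14 that were tested at an adjusted p under 0.05. H2-DMb1, a beta chain of the exchange factor, stood at 3.46 on Roquinsan/+ F, 1.51 on Wild Type B and 0.23 on Roquinsan/+ B, the leading arrays of the members. The proteases Ctss and Lgmn and the thiol reductase Ifi30 had the first pair of these arrays on top. None of the subunits of RFX and NF-Y, the general factors that bind the X and Y boxes, had this pair on top. Over the 12 arrays Nfyc lay between 1.07 and 1.64, Rfxank between -2.25 and -0.88, Nfya between -2.40 and -0.30 and Rfx5 between -6.44 and -3.85. Nfyc and Rfx5 were highest on Roquinsan/+ F.

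Markers of other cells moved with the members on some arrays and not on others. On Roquinsan/+ F the 10 T-cell markers stood at a median of -1.25 against their own medians, and 4 of them had their lowest level there. These markers also stood at -1.10 on Roquinsan/+ C and -0.90 on Wild Type C, where the median member stood at 0.27 and -0.08. Cd3d, Cd3e, Cd3g, Zap70 and Cd247 had their lowest level on Roquinsan/+ C, and Lck on Wild Type C. Cd4 was at 0.22 on Roquinsan/+ F and between 1.002 and 2.37 on the other 11 well-placed arrays. Of 18 myeloid and dendritic markers, 14 were highest on Roquinsan/+ F, with a median of 3.23, and so were both CD8 genes (median 5.09), 5 of 5 NK markers and 3 of 5 erythroid markers. The summed signal of the myeloid and dendritic markers, in units of the array's 75th percentile, was 40.4 to 308 in Roquinsan/+ and 25.9 to 139 in Wild Type. For the T-cell markers it was 53.9 to 147 and 66.2 to 138, and for the members 11.7 to 304 and 7.57 to 88.9. Such sums follow their brightest probes and do not compare amounts of RNA between cell types. In the myeloid and dendritic list, Siglech alone stood at 4.18 on Wild Type F and 7.62 on Roquinsan/+ C. The share of spots well above background was 75.5% on Roquinsan/+ F and 53.4 to 64.6% on the other 11 well-placed arrays. The part of other cells in the levels of the members was not tested.

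The lists separated on Wild Type B, the next array of the order, and on Wild Type C, further down it. On Wild Type B, where the members stood at 2.39, the myeloid and dendritic markers stood at 0.29, the erythroid markers at 0.19, the NK markers at -0.07, the T-cell markers at -0.11, the plasma cell markers at 0.71 and the 2 CD8 genes at 1.36. On Wild Type C the myeloid and dendritic markers stood at 0.70 and the erythroid markers at 2.97, and the members at -0.08. S100a9, a granulocyte gene, was at 5.70 on Wild Type C and 3.65 on Wild Type B, and Lyz2, of macrophages and granulocytes, at 4.79 and 3.91. Against their own medians these genes were also higher on Wild Type B, by 1.41 and 0.87. Itgam, Cd14, Adgre1 and Flt3 of the same list were higher on Wild Type B than on Wild Type C, and its other genes were lower. Roquinsan/+ F and then Wild Type B led for 1 of the 18 myeloid and dendritic markers, Adgre1. The class II members, which myeloid cells can also express, stood at -0.05 on Wild Type C and 2.54 on Wild Type B, close to the B-lineage members at -0.12 and 2.38.

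**Figure D4:**
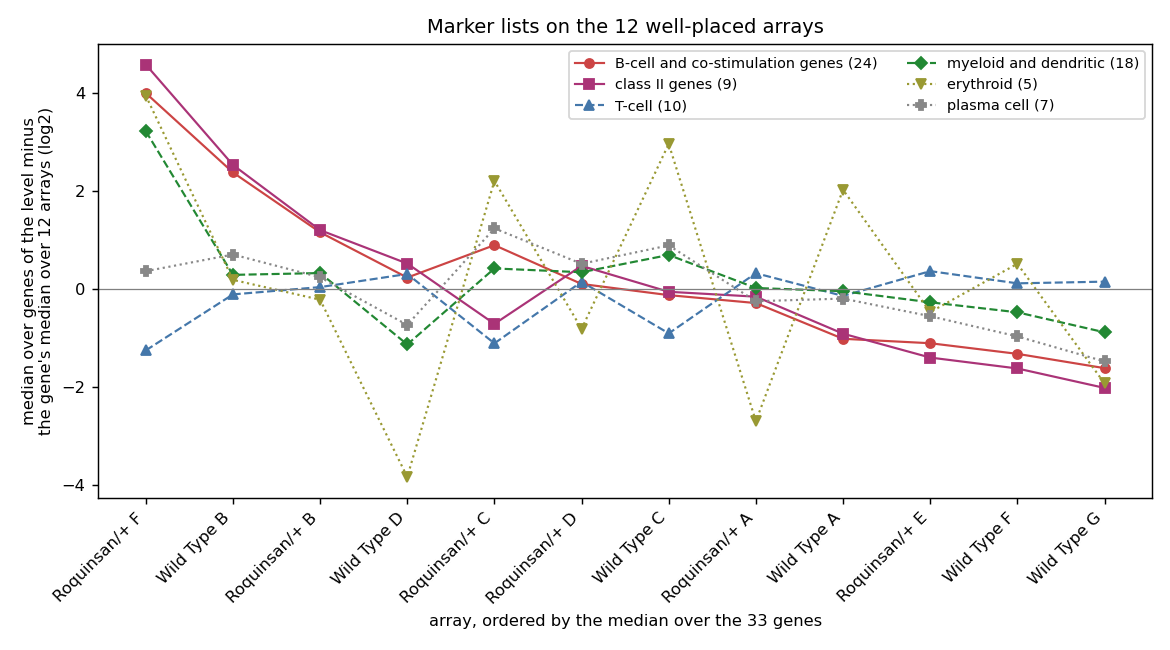
Median over each list of the level minus the gene's own median (log2) on the 12 well-placed arrays, ordered from Roquinsan/+ F to Wild Type G, with the number of genes of each list in the legend. The B-lineage and class II lines fall from 4.01 and 4.59 to -1.61 and -2.01 and lie apart at Roquinsan/+ C, the T-cell line is lowest on Roquinsan/+ F at -1.25, and the erythroid line peaks on Roquinsan/+ F and Wild Type C.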

How the data were processed

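Total RNA of CD4+ T-cells (RNA integrity number above 7 per the labels) was labelled with Cy3 and hybridised to 14 one-colour Agilent arrays. The authors deposited each array's Feature Extraction output (version 10.5.1.1 per the submitters' processing notes), in which processed signals are intensities after background subtraction and detrending, not normalised between arrays. They also deposited a table of log2 values whose normalisation is not stated and which was used as an alternative only. The members and lists were chosen with earlier results of these data known.

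Rows of 2 displaced arrays were moved by the shift, of up to 6 rows or columns, that correlated best with the other arrays. Levels are log2 of the processed signal minus a per-array 75th percentile, taken over the 24219 probes that every one of the 12 well-placed arrays detected above background. The scanner's detection calls of the displaced arrays were not used. Probes were tested when well above background on all 6 well-placed arrays of either genotype (28805 of 56605, of which 794 passed through Roquinsan/+ alone and 3930 through Wild Type alone), and 231 probes with a missing value were left out. A gene is given by its tested probe of highest mean, or by its brightest probe where none was tested. Genes described by their ranges in the text include the widest of each role, and others were added after their values were seen. limma 3.58.1 in R 4.3.3 fitted genotype to all tested probes with Benjamini-Hochberg adjustment and was checked on simulated data. The number of arrays limits the precision. Alternatives were another background correction, other normalisations and filters, slide and replicate letter as blocks, single slides, the deposited names and values, and each array left out. The values of 1 gene of the pathway list are not reported here.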

Additional observations from a re-analysis of the deposited data

Results flagged for a closer look

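Dixon's ratio, the gap between an extreme array and its neighbour divided by the range of the 7 arrays of a genotype, was above its critical value of 0.568 in 12 of the 66 groups examined (33 members in each genotype). Chance flags about 1 group in 20, but the members are not independent of each other and were chosen with the weight of single arrays in view, so these ratios describe that choice and are no separate evidence of it. In 9 of the 12 the extreme was Roquinsan/+ F, highest of its genotype, and 5 of these were class II genes. The ratio was 0.670 for Cd74, 0.641 for H2-Oa, 0.636 for H2-Ob, 0.604 for Ciita and 0.578 for H2-DMa. Outside class II it was 0.659 for Cd72, 0.617 for Cd79b, 0.611 for Cd86 and 0.610 for Bank1 on the same array. Cd72 stood at 2.56 on Roquinsan/+ F and at 0.65 on the next Roquinsan/+ array. Wild Type B was far above the other Wild Type arrays for Cd86, with a ratio of 0.600, and for Pou2af1, with 0.578. Wild Type F was far below them for Cd180, with 0.620 and a level of -3.59 against -3.08 on the nearest array.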

How the results depend on the processing

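Over 14 arrays the median genotype difference was 0.80 for all members, 0.84 for the B-lineage and co-stimulation members and 0.65 for the class II members. It moved by more than the spread within genotypes on single slides, to 2.66, 2.73 and 2.56 on slide 1 and, for the first and the second set, to -0.80 and -0.82 on slide 2. The class II members had -0.65 there. With each array left out in turn the medians ran from 0.21 to 1.29, from 0.31 to 1.31 and from 0.09 to 1.12, lowest without Roquinsan/+ F and highest without Wild Type B. Leaving out Roquinsan/+ F together with both displaced arrays gave 0.33, 0.39 and 0.04, and Wild Type B as well 0.86, 0.90 and 0.62; both settings were chosen after seeing the data. The other alternatives kept medians between 0.62 and 1.03 for all members, 0.62 being that of the authors' values. Each fit called 0 probes, and unadjusted p under 0.05 ran from 69 probes with the names as deposited to 2442 without Wild Type E. Among single members 27 of 957 alternative values moved by more than 1 SD, 16 on slide 1 and 11 on slide 2. The letters did not pair the arrays (correlations of -0.33 to 0.43), and with the replicate block the median of all members was 0.80 and 0 probes were called. Signals of dim members on the displaced arrays are upper bounds, which limits the means over 14 arrays.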

Other observations

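Plasma cell genes, which mark the antibody-secreting end of the B lineage, did not share the order of the members. Of 7 plasma cell genes on the array 1, Mzb1, was highest on Roquinsan/+ F, and the list stood at 0.37 there, at 0.71 on Wild Type B, at 0.90 on Wild Type C and at 1.24 on Roquinsan/+ C. Jchain, the joining chain of secreted IgM and IgA, was at 5.56 on Wild Type C, 5.25 on Roquinsan/+ C, 4.60 on Wild Type B and 3.83 on Roquinsan/+ F. Over the 12 well-placed arrays all 7 had a higher mean in Roquinsan/+, with a median difference of 0.55, and all 7 did so without Roquinsan/+ F, with 0.51; limma called 0 of them at an adjusted p under 0.05.

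Cd24a, a surface gene of young B-cells, red cell precursors and myeloid cells, stood with Bcl11a outside the shared order. It was at 3.55 on Wild Type C, 2.70 on Roquinsan/+ F, 2.60 on Wild Type A, 2.35 on Roquinsan/+ C and 1.53 on Wild Type B. The erythroid markers stood at 2.97 on Wild Type C and 2.03 on Wild Type A. Cd24a and Bcl11a were set beside each other after their values were seen.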
